A study of Caenorhabditis elegans with 6 samples.

Results

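The genes described here are 10 regulators of histone methylation and of stable gene repression in the nematode Caenorhabditis elegans, those of the Polycomb and trithorax groups: mes-2, mes-3, mes-6, mes-4, sop-2, sor-1, lin-49, lin-59, set-2 and utx-1. They were taken by their WormBase symbols from a table of 46932 genes, by a rule that uses no measured value. These genes and the gene lists used below were, however, chosen with earlier results of these data known. All 10 were found in the table, and 9 of them were among the 11968 genes that passed the filter on low counts.

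Polycomb group proteins keep genes silent through cell divisions, and trithorax group proteins keep them active. Polycomb repressive complex PRC2 methylates lysine K27 of histone H3, a mark of repressed chromatin, and H3K27 demethylases remove it. Trithorax-type enzymes place methyl groups on lysine K4 of H3 at active promoters, and other methyltransferases place them on lysine K36 in transcribed genes. In C. elegans the MES proteins are best known for the survival of the germline, SOP-2 and SOR-1 for keeping Hox genes off in the wrong body regions, including in the male tail, and LIN-49 and LIN-59 for the development of the hindgut, to which the rectum belongs.

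RNA was taken from fluorescent cells sorted from pooled young adult males, 5000 cells per library, which the labels name as vir & rep cells, by the design text the rectal valve and gland. The wild-type group (3 libraries) had the genotype gfp::sl2::2xflag::aid::csr-1a, and the mutant group (3 libraries) gfp::sl2::2xflag::aid::csr-1a_delta, a change in the a isoform of the Argonaute gene csr-1. All 6 libraries shared the him-8 background, which yields many males, and the extrachromosomal arrays Ex(pnc-1p::wrmScarlet) and Ex(pcs-1p::wrmScarlet), whose red protein, driven by the pnc-1 and pcs-1 promoters, served for the sort. Parental animals had undergone heat stress at late L4 in either group, so no library shows these genes without that treatment. The question of the comparison was how the csr-1a change affects the cells of the male tail, as far as the series' design text states it.

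Total counts ranged from 17748698 to 47890863 per library, of which 4542195 to 11541671 lay outside ribosomal RNA. Fewest genes were detected in wild-type replicate 3 (14012) and mutant replicate 2 (12757). The targeted gene csr-1 had 185, 209.5 and 267 CPM (counts scaled to a common library total) across wild-type replicates 1 to 3 and 185, 157 and 153 CPM across mutant replicates 1 to 3, and since counts were made per gene this does not check the isoform. The listed markers and reporters of rectal cells made up 0.0125% to 0.017% of non-ribosomal counts in wild type and 0.0274% to 0.0379% in the mutant. Of 7 of them tested, 2 rose, the sort reporters pnc-1 and pcs-1, and 0 fell. Both reporters count in the share above and were its highest genes in the mutant. On average pnc-1 went from 7.18 to 22.95 CPM and pcs-1 from 13.4 to 30.3 CPM, so the share does not measure rectal cells alone. Apart from pnc-1 and pcs-1, the 9 other genes of this list ranged in wild type from 0.0478 CPM on average for the hindgut factor mab-9 to 7.99 CPM for vav-1. Among them sem-4 stood at 3.17, egl-26 at 2.43 and the hindgut factor egl-38 at 0.429 CPM. Genes of coelomocytes, scavenger cells of the body cavity, took 1.63% to 1.67% in wild type and 0.748% to 1.14% in the mutant, with 6 of 6 lower, among them cubn-1 and lgc-26. Genes of body wall muscle took 0.285% to 0.352% and 3.92% to 8.59%, with 15 of 15 tested higher, among them unc-54 and myo-3. Of the other marker lists, neurons took 0.224% to 0.306% in wild type and 0.193% to 0.244% in the mutant. In this list 1 of 14 was lower, rgef-1, and 6 had an unadjusted p under 0.05. Intestine took 0.113% to 0.121% and 0.105% to 0.179% (0 of 11 called, 2 at an unadjusted p under 0.05). Sperm took 0.0253% to 0.0415% and 0.0187% to 0.0288% (0 of 19 called, 2 at an unadjusted p under 0.05). Among all genes tested, 4.04% were called higher and 1.55% lower in edgeR's quasi-likelihood test. In that test 16.9% of them had an unadjusted p under 0.05.

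None of the 9 tested Polycomb and trithorax genes changed between the groups at an adjusted p under 0.05 in edgeR's quasi-likelihood test, against 5.59% of all 11968 genes tested (4.04% higher and 1.55% lower). DESeq2 and limma-voom also called 0 of the 9. Unadjusted p-values under 0.05 were found for 3 of the 9, namely lin-49, lin-59 and sop-2, and for 16.9% of all tested genes. The libraries of the groups did not overlap for 4 of the 9, against 24.8% of all genes tested. The median log2 fold change of the 9, mutant over wild type, was 0.14 beside 0.01 for all genes tested, and their values ran from -0.61 for lin-49 to 0.58 for sop-2. The 95% intervals of 6 genes lay wholly inside a 2-fold change in either direction, and those of mes-2, sop-2 and lin-49 reached past it. In a bulk sample of sorted cells, fewer cells of a type and less RNA per cell cannot be told apart.

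**Figure D1:**
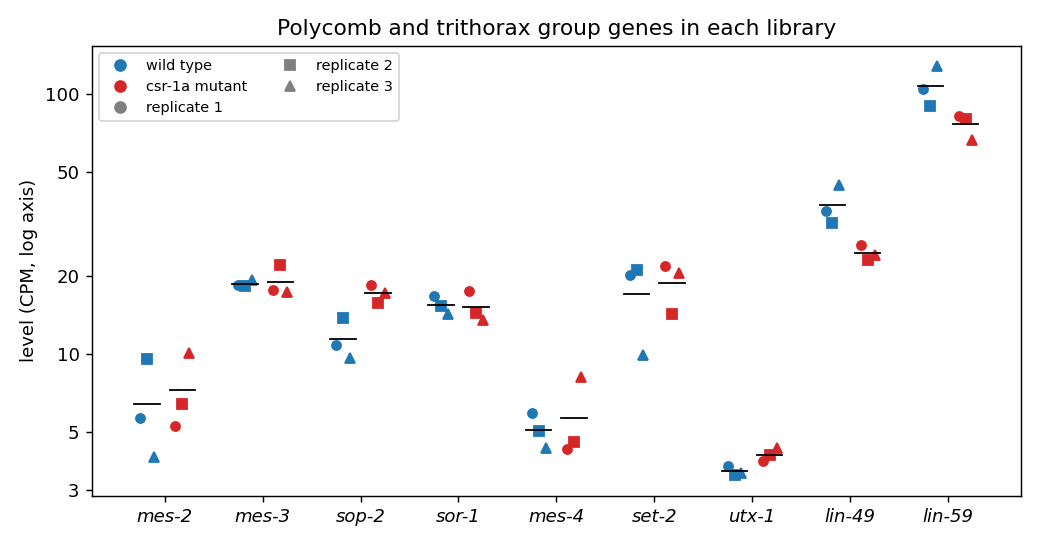
Level of each tested gene in each library, in CPM on a log axis, with wild type in blue, the csr-1a mutant in red, a symbol for each replicate number and a bar at the mean of 3 libraries. For lin-49 and lin-59 all 3 mutant points lie below all 3 wild-type points, for sop-2 and utx-1 above them, and for the other 5 genes the groups overlap; mes-6, listed at 0 in all 6 libraries, is left out.

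The repressors come first, beginning with PRC2. Its catalytic subunit is encoded by mes-2 (WBGene00003220, WBcel235 chromosome II, 14383973 to 14388454, plus strand), the homologue of E(z) and EZH2. Its wild-type levels were 5.69, 9.56 and 4.02 CPM, here and below in the order of replicates 1 to 3, while the mutant libraries had 5.28, 6.46 and 10.1 CPM. The groups overlapped over most of their range, with the highest library of each group about as high as that of the other. The log2 fold change was 0.18 ± 0.38 (SE, edgeR's quasi-likelihood test, adjusted p = 0.899), with a 95% interval from -0.66 to 1.01. Its sign turned when replicate 3 of wild type (-0.08) or of the mutant (-0.10) was left out, so the data give it no direction.

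The PRC2 subunit gene mes-3 (WBGene00003221, chromosome I, 4996835 to 5003202, plus strand) encodes a nematode protein whose sequence has diverged far from PRC2 subunits elsewhere. It stood at 18.4, 18.2 and 19.3 CPM in wild type and at 17.6, 22.02 and 17.3 CPM in the mutant. Apart from mutant replicate 2 all libraries lay close together, and the log2 fold change was 0.02 ± 0.19 (adjusted p = 0.977, edgeR), with a 95% interval from -0.40 to 0.44. This was among the narrowest intervals of the 9. The ratio of mes-3 to mes-2, each per kilobase of exon, varied between libraries, at 2.56, 1.51 and 3.81 in wild type and 2.64, 2.71 and 1.36 in the mutant. The ratio carries no test, and in bulk libraries it does not give the proportion of these RNAs within a cell.

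The remaining core subunit gene, mes-6 (WBGene00003224, chromosome IV, 8511284 to 8513469, plus strand), encodes the homologue of ESC and EED, the subunit that binds the methyl mark. It was listed at 0 counts in all 6 libraries. By counting error alone, 0 counts allow up to 3 counts, which is 0.063 to 0.177 CPM per library. In the annotation 380 bp of its exons, 22.7% of their length, overlap those of C09G4.4 on the same strand, and C09G4.4 was also listed at 0 throughout. The neighbours tag-77 and cks-1 had counts in every library, on average 34.6 and 1.58 CPM in wild type. Of 344 protein-coding genes with at least 20% of their exon length in such an overlap, 58.4% had no count in any library. The same held for 9.48% of 18927 genes with no overlap, and for 99 of 709 genes with an overlap under 20%. At 22.7%, mes-6 lies near the lower bound of its set, so the 58.4% need not hold for genes with so small an overlap. Listed at 0 throughout were also the muscle cofilin gene unc-60, in libraries where the 15 tested muscle genes rose, and the SWI/SNF gene snfc-5, whose exons overlap no other gene in the annotation. Whether the 0 of mes-6 comes from the way reads were counted was not tested, and it was not read as a lack of its RNA.

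The SAM-domain repressor gene sop-2 (WBGene00004945, chromosome II, 12339944 to 12344799, plus strand) had levels of 10.8, 13.8 and 9.64 CPM in wild type and at 18.5, 15.6 and 17.2 CPM in the mutant. All mutant libraries lay above all wild-type libraries, as was so for 12.6% of all genes tested. The log2 fold change was 0.58 ± 0.22, with a 95% interval from 0.10 to 1.07, and it did not pass the test (unadjusted p = 0.0232, adjusted p = 0.19, edgeR). Leaving out single libraries gave values from 0.47 to 0.73.

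Its partner gene sor-1 (WBGene00023405, chromosome III, 8418168 to 8422654, plus strand) stood at 16.7, 15.2 and 14.3 CPM in wild type and at 17.5, 14.3 and 13.5 CPM in the mutant. Here the groups covered nearly the same range, with a log2 fold change of -0.03 ± 0.21 (adjusted p = 0.976, edgeR) and a 95% interval from -0.49 to 0.43. The ratio of sop-2 to sor-1 per kilobase of exon was 0.664, 0.926 and 0.691 in wild type, and in the mutant it was 1.09, 1.12 and 1.31. The ratio was formed after the values of both genes were seen and carries no test.

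Among the activating and counteracting enzymes, mes-4 (WBGene00003222, chromosome V, 13433050 to 13437545, minus strand) encodes an H3K36 methyltransferase of the NSD family that marks germline genes. It was counted at 5.93, 5.06 and 4.38 CPM in wild type and at 4.31, 4.59 and 8.16 CPM in the mutant. Mutant replicate 3 stood above the other 5 libraries, which lay close together. The log2 fold change was 0.14 ± 0.35 (adjusted p = 0.91, edgeR), with a 95% interval from -0.62 to 0.91, and without mutant replicate 3 it was -0.17.

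The H3K4 methyltransferase gene set-2 (WBGene00004782, chromosome III, 4922427 to 4930204, minus strand), of the SET1 type, stood at 20.2, 21 and 9.87 CPM in wild type and at 21.8, 14.2 and 20.4 CPM in the mutant. The lowest library of each group was the one with the fewest detected genes in that group, wild-type replicate 3 and mutant replicate 2. The log2 fold change of 0.14 ± 0.29 (adjusted p = 0.89, edgeR; 95% interval from -0.50 to 0.79) became -0.14 without wild-type replicate 3.

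The H3K27 demethylase gene utx-1 (WBGene00017046, chromosome X, 8557146 to 8563238, plus strand), which removes the mark that PRC2 places, had the fewest counts of the genes tested here, 59 to 185 per library. Its levels were 3.71, 3.42 and 3.49 CPM in wild type and 3.89, 4.08 and 4.35 CPM in the mutant. The groups did not overlap but lay close to each other, and the log2 fold change was 0.21 ± 0.34 (adjusted p = 0.848, edgeR), with a 95% interval from -0.53 to 0.95.

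The trithorax-like genes had the lowest log2 fold changes of the 9. The gene lin-49 (WBGene00003034, chromosome IV, 8620683 to 8626162, plus strand) encodes a bromodomain protein related to human BRPF1. It was counted at 35.4, 31.9 and 44.7 CPM in wild type and at 26.3, 23.0 and 24.1 CPM in the mutant. The mutant libraries lay close together and all below the wild-type libraries, a separation found for 12.2% of all genes tested. The log2 fold change was -0.61 ± 0.18, with a 95% interval from -1.0 to -0.22, and it missed the threshold (unadjusted p = 0.00592, adjusted p = 0.0793, edgeR). Over the 17 alternatives the adjusted p ran from 0.0521 with DESeq2 to 0.372 when both libraries with the fewest genes were left out, where the log2 fold change was -0.38.

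The gene lin-59 (WBGene00003040, chromosome I, 3713449 to 3721157, minus strand) encodes a SET-domain protein related to fly ASH1. Its levels were 104.3, 89.9 and 127 CPM in wild type and 82.0, 79.8 and 66.6 CPM in the mutant, again with all mutant libraries below. The log2 fold change was -0.49 ± 0.17, with a 95% interval from -0.86 to -0.12 (unadjusted p = 0.0136, adjusted p = 0.134, edgeR). In the wild-type libraries lin-49 and lin-59 had the same order, highest in replicate 3 and lowest in replicate 2. The ratio of lin-59 to lin-49 per kilobase of exon was 2.52, 2.41 and 2.43 in wild type and 2.67, 2.97 and 2.37 in the mutant. Relative to its mean, it varied less than either level between the wild-type libraries, but not between the mutant libraries. The ratio carries no test.

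Beside these values, the coelomocyte list made up 1.63% to 1.67% of non-ribosomal counts in wild type and 0.748% to 1.14% in the mutant, with a median log2 fold change of -0.82 over its 6 genes. Within wild type the coelomocyte list was nearly level, at 1.63%, 1.65% and 1.67% in replicates 1 to 3. The neuron list took 0.231%, 0.224% and 0.306% and, like lin-49 and lin-59, was highest in replicate 3. The related genes rbr-2 and met-1 were also highest there. The neuron list had a median of -0.24 over 14 genes. The muscle list had a median of 4.05 over 15 genes, and none of its matched genes except unc-60 was at 0 in a whole group. The part of other cell types in the values of lin-49, lin-59 and sop-2 was not tested.

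**Figure D2:**
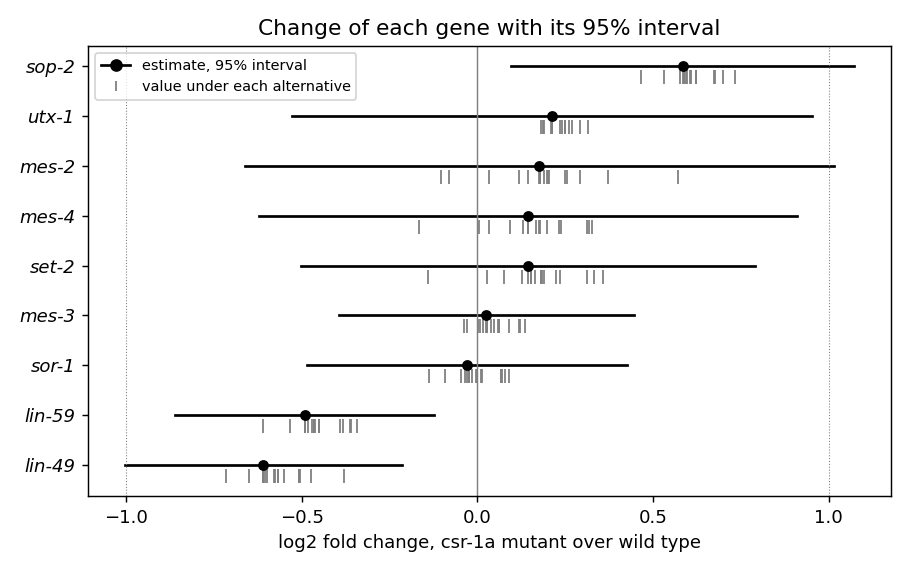
Log2 fold change of each tested gene, mutant over wild type (horizontal axis), with its 95% interval as a line and the values under the alternatives as grey ticks; dotted lines mark a 2-fold change. Only the intervals of sop-2, lin-59 and lin-49 leave out 0. The ticks of these 3 genes, and those of utx-1, keep their sign in every alternative that tested them.

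Compared per kilobase of merged exon, the level of these genes in wild type spanned from 24.6 ± 4.34 CPM per kilobase (SD, n = 3) for lin-59 to 0.922 ± 0.0388 for utx-1. Between them came lin-49 at 10.0 ± 1.78, mes-3 at 5.96 ± 0.196, sor-1 at 5.77 ± 0.457, sop-2 at 4.38 ± 0.811, set-2 at 3.11 ± 1.13, mes-2 at 2.59 ± 1.15 and mes-4 at 1.64 ± 0.250 CPM per kilobase. Among tested protein-coding genes, lin-59 lay at percentile 94.4 of the wild-type levels, lin-49 at 84.5, mes-3 at 74.1, mes-2 at 51.0 and utx-1 at 24.1. The neighbours lin-59 and lin-49, and mes-4 and utx-1, kept separate ranges in both groups. The neighbours mes-3 and sor-1, set-2 and mes-2, and mes-2 and mes-4 overlapped in both. In the mutant the order was the same except that sop-2 moved from rank 5 to rank 3, ahead of mes-3 and sor-1, with a mean of 6.57 ± 0.548 CPM per kilobase against 6.06 ± 0.849 and 5.65 ± 0.784. These differences at rank 3 to 5 are within the spread of the mutant libraries.

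The library-to-library differences of mes-2 followed the share of counts taken by a list of 23 germline genes, such as glh-1 and cgh-1, which does not hold any of the 10 genes. That share was 0.0813%, 0.107% and 0.0465% in wild type, against 0.0745%, 0.0881% and 0.124% in the mutant. The 6 libraries had the same order by mes-2 level and by germline share, within each group as well as over both. Pearson's r was 0.96 (exact permutation test, two-sided, p = 0.00139, adjusted p = 0.0125 over the 9 genes) and Spearman's rho 1 (exact p = 0.00278, adjusted p = 0.025). Without the 2 libraries farthest from the median share, wild-type replicate 3 and mutant replicate 3, r was 0.99 over 4 libraries. With 6 libraries these exact p-values are the smallest that the permutation tests can give. An r at least as high was found for 53 of 11968 genes tested, 0.443%. Those 11968 include the 22 tested genes of the germline list, which themselves make up the share. The relation was examined after the values were seen, and the level and the share come from the same libraries and so share their depth and composition.

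No other gene of the 9 had an adjusted p under 0.05 for this relation. The H3K36 methyltransferase gene mes-4 had r = 0.74 (exact permutation p = 0.103, adjusted p = 0.291), which was 0.14 without the same 2 libraries. The trithorax-like genes had negative values, with r = -0.82 for lin-59 (exact permutation p = 0.0431, adjusted p = 0.194) and r = -0.69 for lin-49 (exact permutation p = 0.129, adjusted p = 0.291). Without the same 2 libraries these were 0.02 and 0.21, so that they rested on those libraries. For mes-3, which also acts in PRC2, r was -0.29 (exact permutation p = 0.551, adjusted p = 0.557). Of the 23 germline genes, 22 were tested, 0 were called and 1 had an unadjusted p under 0.05 in edgeR, against 16.9% of all genes tested. Their median log2 fold change was 0.14, and gld-1, a regulator of germ cell fate, was listed at 0 in all 6 libraries. Whether the mes-2 reads came from germ cells in the sort was not tested.

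**Figure D3:**
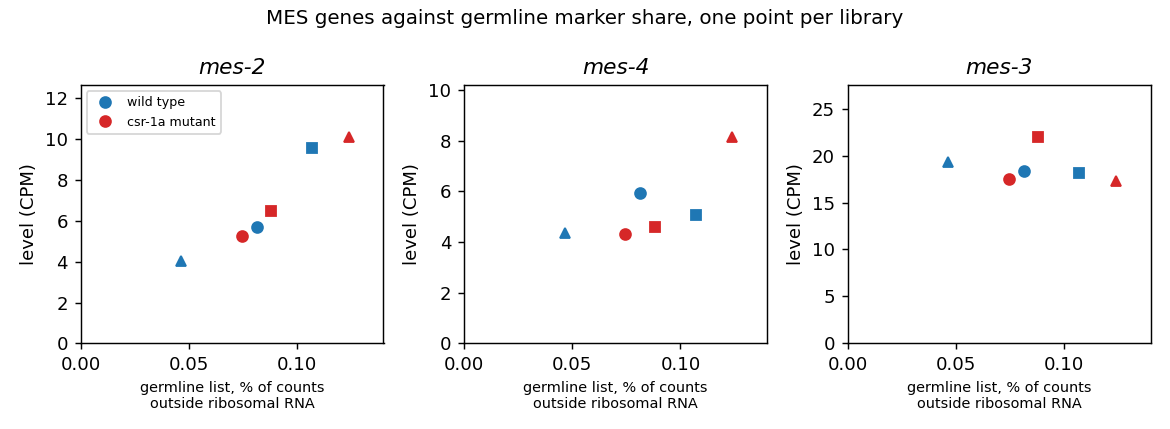
Level of mes-2, mes-4 and mes-3 in CPM (vertical axes) against the share of the germline list in the counts outside ribosomal RNA (horizontal axes), with a point per library, wild type in blue and the csr-1a mutant in red. The points of mes-2 rise with the share in both groups (r = 0.96), for mes-4 r is 0.74 and falls to 0.14 without the outer libraries, and for mes-3 it is -0.29.

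Other genes of the same pathways were read from the same fit. Of 42 genes listed, 40 matched a gene in the annotation, 38 were tested and 0 changed in edgeR's quasi-likelihood test, with a median log2 fold change of 0.05. Unadjusted p-values under 0.05 were found for 7 of the 38, near the 16.9% of all genes tested. DESeq2 called 1 and limma-voom 0. The groups did not overlap for 11 of the 38, 5 higher and 6 lower, where 24.8% of all genes tested did not overlap.

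In the COMPASS and MLL complexes, with which H3K4 methyltransferases work, 0 of 11 genes passed the test, 9 had positive values, and the median was 0.20. The gene with the smallest p was set-16, which encodes the MLL-type methyltransferase of the worm. It stood at 44.0, 46.9 and 44.5 CPM in wild type and at 55.7, 49.6 and 57.8 CPM in the mutant, a log2 fold change of 0.27 ± 0.15 (adjusted p = 0.424, edgeR). Of the 4 H3K4 demethylase genes none passed. The smallest p was that of rbr-2, of the KDM5 family, at -0.37 ± 0.20 (adjusted p = 0.398, edgeR), which was also the most abundant of these demethylases at 22.9 CPM per kilobase in wild type.

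Among H3K27 demethylases other than utx-1, jmjd-3.2 had the largest value of all related genes. This homologue of jmjd-3.1 (chromosome X, 11 bp of its exons overlapped on the other strand by F23D12.7) had 2, 3 and 0 counts in wild type and 120, 23 and 22 counts in the mutant. All mutant libraries stood at 0.911 CPM or more and all wild-type libraries at 0.153 CPM or less. The fitted log2 fold change of 4.12 ± 1.20 rests on these few wild-type counts and on the prior count of the fit, and it did not pass (adjusted p = 0.0756, edgeR). It was called by DESeq2 (adjusted p = 0.0044) and, in edgeR, without mutant replicate 2 (adjusted p = 0.0471), and its adjusted p over the alternatives reached 0.395. The better known jmjd-3.1, named after its value was seen, was at 0.25 ± 0.26 (adjusted p = 0.746, edgeR), and jmjd-3.3 had too few counts to be tested.

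Of the H3K36 enzymes and readers other than mes-4, 0 of 5 passed, with met-1, the other main H3K36 methyltransferase, at -0.43 ± 0.17 (adjusted p = 0.224, edgeR). Of the readers of H3K27 methylation 0 of 2 passed, and the chromodomain gene cec-1 went from 12.7, 12.2 and 13.2 CPM to 9.23, 7.45 and 8.52 CPM without overlap (log2 fold change -0.60 ± 0.23, adjusted p = 0.197, edgeR). Among the genes of histone H2A ubiquitylation and the SOP-2 partner sor-3, 0 of 3 passed. The RING1-related gene spat-3 was at 0.51 ± 0.22 (adjusted p = 0.266, edgeR) with 47.8 CPM in mutant replicate 1, which also had the highest muscle share, and 27.6 to 29.4 CPM in the other mutant libraries. Without mutant replicate 1 its log2 fold change was 0.23. The MBT-domain gene sor-3, named after its value was seen, was at -0.71 ± 0.31 (adjusted p = 0.27, edgeR). Of the SWI/SNF remodelling subunits and the acetyltransferase gene cbp-1, 0 of 11 passed, with a median of -0.10. The smallest p was that of phf-10, at -0.62 ± 0.24 (adjusted p = 0.197, edgeR). The core subunit gene snfc-5 was among those listed at 0.

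**Figure D4:**
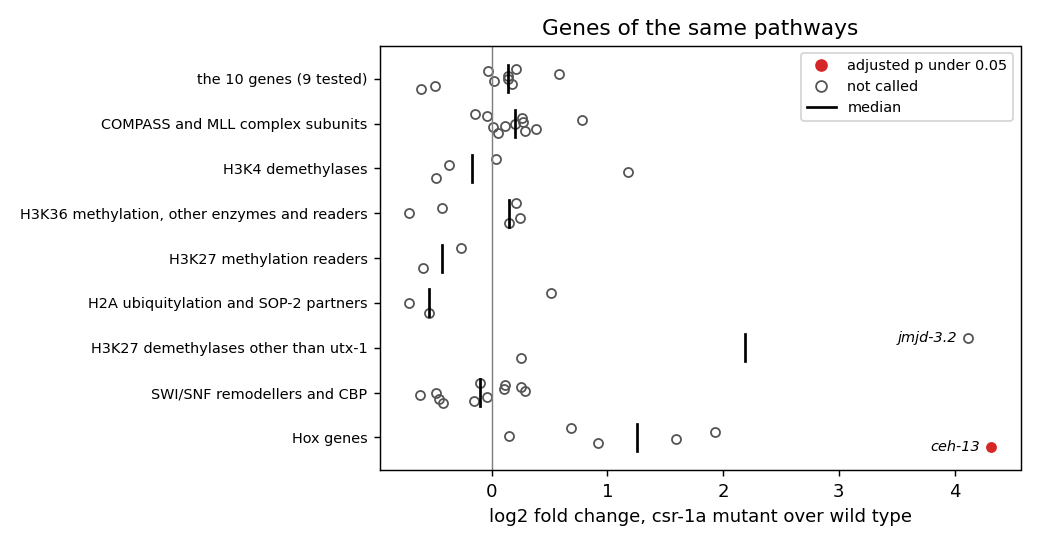
Log2 fold change, mutant over wild type (horizontal axis), of each tested gene in the lists of related pathways, with open points for genes not called, filled red points for genes with an adjusted p under 0.05 and a bar at each list's median. Apart from jmjd-3.2 at 4.12 and the Hox gene ceh-13 at 4.32 most points lie within 1 of 0, and ceh-13 is the only called gene.

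Hox genes are the classical targets of Polycomb repression, and 1 of 6 rose in the mutant while 0 fell, where 4.04% of all genes tested were called higher. The anterior Hox gene ceh-13 had 6, 2 and 0 counts in wild type and 190, 36 and 50 counts in mutant libraries, with a log2 fold change of 4.32 ± 0.97 (adjusted p = 0.0247, edgeR). The call ended with limma-voom (adjusted p = 0.235) and when wild-type replicate 2 (0.0787), mutant replicate 1 (0.18) or mutant replicate 3 (0.0768) was left out, each value an adjusted p. All 6 Hox genes were at low level, at most 1.54 CPM on average in wild type, and ceh-13 and the muscle list were both highest in mutant replicate 1. The part of muscle cells in the value was not tested.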

How the data were processed

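The authors deposited raw read counts per gene for the 6 libraries, and their processing notes name STAR, fastp 0.20.1, DESeq2, Subread 2.0.0 and featureCounts, with no roles (per the submitters' processing notes). Build, annotation and strand setting are not given in these sources, so reads of overlapping genes on either strand cannot be told apart. Symbols, coordinates and merged exon lengths came from WBcel235 (Ensembl release 115), which held 46919 of the 46932 identifiers, and 3 listed symbols matched none. Groups followed the sample labels, which name each library as a biological replicate (bio rep). The labels do not say that replicates came from separate cultures, so p-values measure the spread between these libraries. No pair of replicates agreed within sampling noise (chi-square per degree of freedom at least 6.73).

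Counts were tested over the whole table with edgeR 4.0.16 in R 4.3.3: filterByExpr (minimum count 10, total 15), TMM scaling, glmQLFit with robust=TRUE and glmQLFTest on group, with Benjamini-Hochberg adjustment over 11968 genes and a threshold of 0.05. Standard errors were derived from the log2 fold change and the F statistic of the quasi-likelihood test. Intervals (95%) use these standard errors and are not adjusted. CPM is relative to totals that include ribosomal RNA (74.4% to 78.4%), and intervals and floors (3 counts) cover counting error only where they come from counts. The procedure was run on counts simulated with less spread between replicates than these libraries showed, so that run does not give its power or error rate here. DESeq2 1.42.0, limma-voom (limma 3.58.1) and other scalings, filters and subsets were the 17 alternatives. The text names all 10 members, csr-1, some of the leading markers and, from each related or Hox list, the called genes or else the gene with the smallest p. Some further genes, such as mab-9, sem-4, unc-60 and gld-1, are named outside this rule. The members and lists were chosen with earlier results of these data known. Protein and DNA sequences are not used here.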

Additional observations from a re-analysis of the deposited data

How the results depend on the processing

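The count of 0 called among the 9 Polycomb and trithorax genes was the same in all 17 alternatives, of which the stricter filter tested 8. The count of related genes called was 0 except for 1 with DESeq2 and a range of 0 to 1 over the libraries left out singly (jmjd-3.2 in both). Over all genes, 669 were called, 484 higher and 185 lower, against 1048 without a low-count filter, 1062 with DESeq2 and 416 to 697 with single libraries left out. Library totals alone gave 573 higher and 89 lower and moved the median of all genes from 0.01 to 0.11. No sign is firm for genes near 0. With single libraries left out, log2 fold changes ran from -0.10 to 0.57 for mes-2, -0.039 to 0.12 for mes-3, -0.14 to 0.090 for sor-1, -0.17 to 0.33 for mes-4 and -0.14 to 0.36 for set-2. That of mes-3 was -0.031 without the pair of libraries that had the fewest genes. That of sor-1 was 0.071 with library totals alone, 0.0685 with the stricter filter (5 CPM in 3 libraries), 0.011 without ribosomal RNA and 0.012 without the muscle list. The cause was not tested. A replicate block called 560 genes in all, 0 of the 9 and 0 of the 38 related genes. Deviations of same-numbered libraries from their group means correlated at 0.04, -0.02 and -0.07 and so showed no pairing. With 3 libraries per group these values cannot exclude a shared culture or day. The precision of each gene is given by its interval, and with 3 libraries per group the intervals of mes-2, sop-2 and lin-49 reach past a 2-fold change.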
